A study of Rattus norvegicus with 8 samples.

Results

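The hyperpolarization-activated cyclic nucleotide-gated (HCN) channels and their auxiliary subunit Trip8b were followed in the hippocampal dentate gyrus (DG) through 4 genes. Hcn2, Hcn3 and Hcn4 encode pore-forming channel subunits, and Pex5l encodes Trip8b. The members were the non-control spots whose gene name in the scanner files equals one of these symbols, which gave 6 of 43379 non-control spots and 4 of 35199 gene names. Of the 4 genes, Hcn2, Hcn3 and Pex5l had a spot with usable signal in all 8 rats and were quantified, among 21332 quantified gene names, and Hcn4 was not.

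The 8 rats were adult female Sprague-Dawley rats of 150 to 200 g, ovariectomized (OVX) a week before the experiment, in 2 groups of 4 that differed in hormone replacement. The E2-replaced rats (CES) received β-estradiol (E2) as its benzoate, in 4 injections of 2 µg spaced 24 h apart. Of these injections, 2 came before and 2 after the seizures, and the oil-injected rats (COS) received oil. In all 8 rats kainic acid at 16 mg/kg intraperitoneally induced status epilepticus (SE), which pentobarbital ended after 5 h, so OVX and SE are shared by both groups and rats without SE were not analysed here. The sample records and the methods of the study differ on the kainic acid dose, on the timing of E2 around SE, on the drug that ended SE and on the time of collection, and nothing in the files decides between the accounts. RNA from each rat was labeled with Cy3 (replicates 1 and 3 of each group) or Cy5 (replicates 2 and 4), and 2 rats of the same group were hybridized to each of 4 arrays on 1 slide. The comparison of CES with COS asks how E2 replacement changes the DG transcriptome of OVX rats that went through SE.

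HCN channels open when the membrane hyperpolarizes and carry the current Ih, which sets resting potential, dampens dendritic summation and contributes to rhythmic firing. Direct binding of cyclic AMP to the channel shifts the voltage at which it opens, strongly for HCN2 and HCN4 and little for HCN3. Trip8b, a brain protein related to the peroxisomal import receptor Pex5, binds the end of HCN subunits, steers them to or from the cell surface and dendrites, and counteracts the effect of cyclic AMP. In the hippocampus the channels and Trip8b are best known from the dendrites of pyramidal cells, and Ih is known to change after seizures.

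The probe of each gene decides which stretch of the transcript was read, and the 2 probes of Hcn3 gave differences of opposite sign, so the probes behind the quantified genes are given here as the files print them, 5′ to 3′, all 60 bases in lower case with no base singled out.
Hcn2, probe A_43_P15654: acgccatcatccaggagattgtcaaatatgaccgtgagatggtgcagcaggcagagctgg
Hcn3, probe A_44_P107352: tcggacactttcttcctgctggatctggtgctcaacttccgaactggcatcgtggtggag
Hcn3, probe A_43_P15414: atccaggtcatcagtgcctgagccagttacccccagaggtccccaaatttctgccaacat
Pex5l, probe A_44_P125710: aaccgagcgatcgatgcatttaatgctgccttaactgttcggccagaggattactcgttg

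On the rat build rn4, which the files use, the Hcn2 probe lies at chr7:11485814-11485873 on the minus strand. The Hcn3 probes lie on the minus strand of the same chromosome as Pex5l, A_44_P107352 at chr2:181230171-181230230 and A_43_P15414 at chr2:181224326-181224385. On that strand A_44_P107352 is the one nearer the 5′ end of Hcn3, with 5785 bases of genome between the probes. The Pex5l probe is also on the minus strand and spans chr2:119132593-119133005, which is 413 bases of genome for a probe of 60 bases, so it reads 2 or more blocks of the genome. The Hcn4 probes lie on the plus strand, A_44_P465011 at chr8:62650741-62650800 and A_44_P327807 at chr8:62667174-62667233. No annotation of this build was used here, so exons and untranslated regions are not given.

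Valid spots were those whose foreground reached 2 times the background around them. This held for 74.6% to 88.9% of the spots in the COS rats and 70.7% to 81.5% in the CES rats, and no member spot was saturated or marked as an outlier. CES replicate 2 stood apart from its group. Across genes, its levels, centered within the dye, had a correlation of 0.01 with the CES minus COS difference of the other rats, against 0.71 to 0.84 in the other CES rats and -0.79 to -0.67 in the COS rats (genes are not independent replicates). Results that turn on this rat are therefore given with and without it. Because CES replicate 2 was set apart by the group difference itself, leaving it out tends to favor a difference. A result that passed only without this rat is therefore not separate evidence of a group difference. Dixon's test for a single outlying value flagged 0 of 16 within-group sets of member levels and ratios.

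Pex5l stood far above background, with a foreground 55.9 to 175 times background in the COS rats and 116 to 282 times in the CES rats. Hcn2 was dimmer, at 4.13 to 9.92 times background in COS and 5.73 to 12.3 times in CES, and the scanner software did not mark COS replicate 3 as well above background. Hcn3 was read at 7.52 to 20.2 times background in COS and 5.57 to 14.7 times in CES by A_43_P15414. The other Hcn3 probe, A_44_P107352, was at 4.23 to 8 times background in COS and 5.65 to 11.1 times in CES, and COS replicate 3 again lacked the mark. The ratio differs between probes for reasons other than abundance, so it ranks detection and not the genes.

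**Figure D1:**
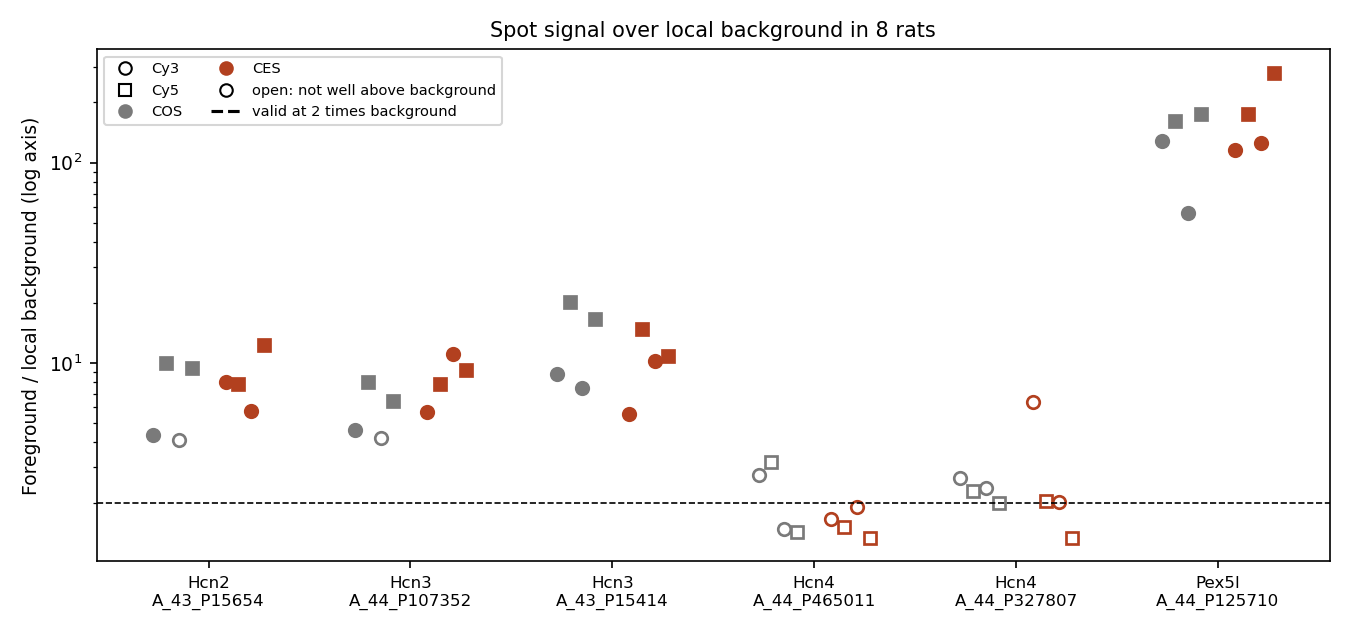
Foreground over local background (log axis) of the 6 member spots in each rat, COS in gray and CES in red, circles for Cy3 and squares for Cy5. Open symbols are spots that the scanner software did not mark as well above background, and the dashed line is the limit of 2 for a valid spot. All 16 Hcn4 symbols are open, and the Pex5l symbols lie at 55.9 or higher.

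Hcn4, the subunit of the cardiac pacemaker and of some thalamic and brainstem neurons, was not well above background on either probe in any of the 8 rats. The foreground of A_44_P327807 was 128, 77.6, 132 and 75.5 intensity units in COS replicates 1 to 4 and 179, 75.7, 78.5 and 49.1 in CES replicates 1 to 4. That of A_44_P465011 was 123, 106, 69.1 and 55.2 in COS and 82.9, 54.2, 39.9 and 47.8 in CES. The groups overlapped on both probes. A_44_P327807 was valid in 3 of 4 COS and 3 of 4 CES rats, and A_44_P465011 in 2 of 4 COS and 0 of 4 CES rats. After background subtraction A_44_P327807 was brighter than 95% of the 153 negative controls in 1 COS rat and 2 CES rats, and A_44_P465011 in 0 of 8 rats. Since both groups were below the software's mark, no fold is given for Hcn4, and a difference between the groups was not detectable at this signal.

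Levels are given as log2 of the background-subtracted signal over the channel median, taken from all valid spots of that dye on the array, so that 0 is the signal of the median valid spot. They can be compared between rats for 1 probe, not between probes. Pex5l was the only member called. It was 1.65-fold higher in CES, a difference of 0.72 ± 0.22 (SE) on the log2 scale with a 95% confidence interval of 0.23 to 1.21 (limma, adjusted p = 0.0307, n = 4 per group). Hcn2 and Hcn3 did not pass the test, so 1 of the 3 quantified members was called. Over all 21332 genes the same fit called 34.1%, with 5.8% higher and 28.3% lower in CES.

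**Figure D2:**
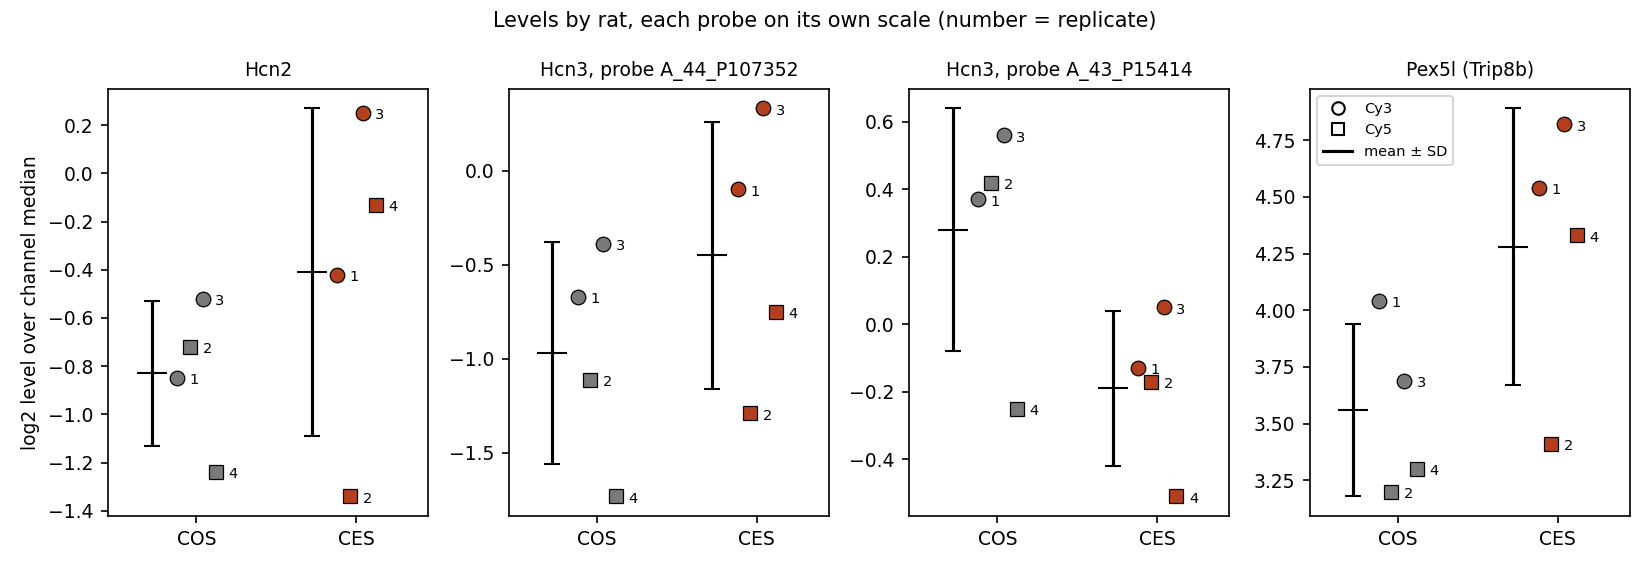
Log2 level of Hcn2, of each Hcn3 probe and of Pex5l in every rat, each panel on its own axis, with the replicate number beside each symbol, circles for Cy3, squares for Cy5 and bars for mean ± SD (n = 4). The CES symbols of Pex5l run from 3.41 to 4.82 against 3.20 to 4.04 in COS, and CES replicate 2 is the lowest CES rat for Hcn2, Pex5l and Hcn3 probe A_44_P107352.

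For Hcn2, a subunit that is widespread in the brain, the log2 level was -0.85, -0.72, -0.52 and -1.24 in COS replicates 1 to 4. It was -0.42, -1.34, 0.25 and -0.13 in CES replicates 1 to 4. In 3 CES rats the level was above every COS rat, while CES replicate 2 was below every COS rat, so the groups overlapped. The means were -0.83 ± 0.30 in COS and -0.41 ± 0.68 in CES (SD, n = 4), and the difference of 0.42 ± 0.28 (SE, confidence interval -0.21 to 1.05) did not pass the test (limma, adjusted p = 0.277). Without CES replicate 2 it was 0.70 and passed (limma, adjusted p = 0.0298), whereas without CES replicate 3 or 4 it was 0.15 and 0.12 (limma, adjusted p = 0.656 and 0.702). Within Cy3 both CES rats were above both COS rats, by 0.60 on average, and within Cy5 the rats overlapped with a mean difference of 0.24. The Hcn2 SD in the CES rats exceeded that of 80.1% of all genes, and its SD in the COS rats that of 30.3%.

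For Hcn3, a subunit with sparse expression in the adult brain, the level averaged over its 2 probes was -0.06, -0.15, 0.16 and -0.81 in COS and -0.11, -0.62, 0.20 and -0.62 in CES. The groups covered nearly the same range, with means of -0.21 ± 0.42 and -0.29 ± 0.40 (SD, n = 4). The difference was -0.08 ± 0.19 (SE, confidence interval -0.50 to 0.34; limma, adjusted p = 0.772), and its sign turned to 0.18 after loess, 0.31 after quantile normalization, 0.32 when each channel was scaled on spots valid throughout, 0.27 in the deposited log2 values and 0.07 without COS replicate 2. Within the dyes the difference was -0.01 for Cy3 and -0.14 for Cy5.

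The 2 probes behind that average differed between the groups with opposite signs. On A_43_P15414, nearer the 3′ end, the level was 0.37, 0.42, 0.56 and -0.25 in COS and -0.13, -0.17, 0.05 and -0.51 in CES. On A_44_P107352, nearer the 5′ end, it was -0.67, -1.11, -0.39 and -1.73 in COS and -0.10, -1.29, 0.33 and -0.75 in CES. The groups overlapped on both probes, through COS replicate 4 on the first and through several rats on the second. In a fit over all probes the difference was -0.47 ± 0.19 on A_43_P15414 (limma, adjusted p = 0.0837) and 0.52 ± 0.21 on A_44_P107352 (limma, adjusted p = 0.0828), so neither passed, where 34.5% of all probes did. When spots had to be well above background in every rat, A_43_P15414 alone represented Hcn3 and its difference of -0.47 passed (limma, adjusted p = 0.0410).

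The ratio of the 2 Hcn3 probes within a rat is free of any constant factor of the channel, though not of corrections that depend on intensity. The log2 ratio of A_44_P107352 over A_43_P15414 was -1.04, -1.53, -0.95 and -1.49 in COS and 0.04, -1.13, 0.28 and -0.24 in CES. In 3 CES rats it was above every COS rat, and CES replicate 2 lay inside the COS range. The mean was -1.25 ± 0.30 in COS and -0.26 ± 0.61 in CES (SD, n = 4), a difference of 0.99 that an exact permutation test did not call (two-sided p = 0.0857, where 4 against 4 rats can give 0.0286 at the lowest). Without CES replicate 2 the difference was 1.28 (exact permutation p = 0.0286, the smallest that 3 against 4 rats can give). With the scanner software's processed signal, a choice made after these values were seen, the groups separated with a difference of 1.13 (exact permutation p = 0.0286), and with normexp or loess it was 0.54 and 0.52 (exact permutation p = 0.0571 for both). Of 2871 genes with 2 quantified probes, 19.7% had a probe ratio that did not overlap between the groups, 21.3% had probe differences of opposite sign, and 4.77% had a larger gap between their probe differences than Hcn3. Which transcripts of Hcn3 each probe reads was not tested.

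**Figure D3:**
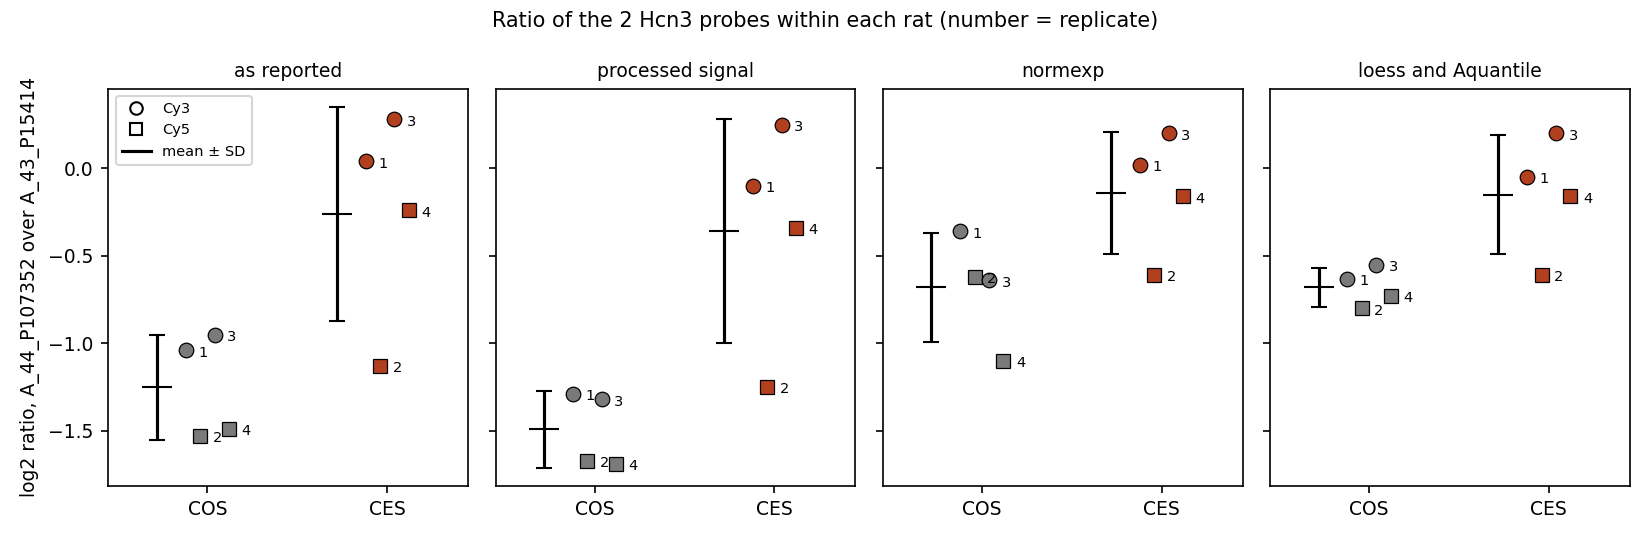
Log2 ratio of the 2 Hcn3 probes within each rat under 4 ways of computing the signal, with the replicate number beside each symbol, circles for Cy3, squares for Cy5 and bars for mean ± SD (n = 4). CES replicates 1, 3 and 4 lie above all COS rats in each panel, and CES replicate 2 lies at -1.13, -1.25, -0.61 and -0.61 from left to right.

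For Pex5l the level was 4.04, 3.20, 3.69 and 3.30 in COS replicates 1 to 4 and 4.54, 3.41, 4.82 and 4.33 in CES replicates 1 to 4. CES replicates 1, 3 and 4 were above every COS rat, and CES replicate 2 lay among the COS rats, so the groups overlapped, as they did for each of the 3 quantified members. Over all genes 21.4% had groups that did not overlap, 1.61% with CES above COS and 19.8% with CES below. The means were 3.56 ± 0.38 and 4.28 ± 0.61 (SD, n = 4). Cy5 rats averaged 0.71 below Cy3 rats. Within Cy3 the CES rats were above the COS rats by 0.82 and within Cy5 by 0.62, with no overlap inside either dye, an arrangement that 7.43% of all genes shared in this direction and 33.6% in the opposite one. A permutation of the 8 rats, which takes no account of the dye, gave an exact two-sided p of 0.0857.

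The median difference of all genes was -0.25, with 31.5% of genes higher in CES, and it turned to 0.04 after loess, 0.06 after quantile normalization, 0.15 when scaled on spots valid throughout and 0.12 in the deposited values. As reported, Pex5l stood 0.97 above the median gene, with a larger difference than 95.6% of genes, and under those 4 scalings it stood 0.95 to 0.97 above it. Hcn2 stood 0.67 above the median gene and Hcn3 0.18. Set against the median of all genes in the same rat, Pex5l was at 2.88, 2.32, 2.39 and 2.69 in COS and at 3.87, 2.87, 3.93 and 3.97 in CES. On that scale CES replicate 2 was 0.01 below the highest COS rat and the other CES rats were clear of the COS range (exact permutation p = 0.0571). The same scale gave -1.82 ± 0.17 in COS and -1.03 ± 0.62 in CES for Hcn2 (exact permutation p = 0.114) and -1.20 ± 0.16 and -0.91 ± 0.21 for Hcn3 (exact permutation p = 0.0857), where each value is a mean ± SD of 4 rats.

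**Figure D4:**
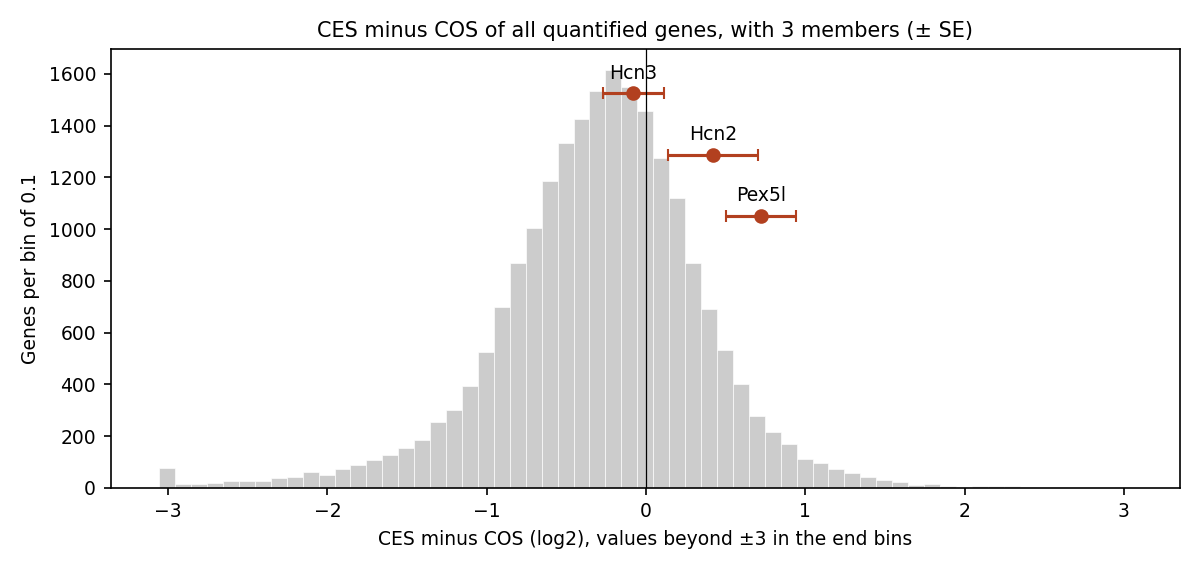
Histogram of the CES minus COS difference (log2) of all 21332 quantified genes, with Hcn3, Hcn2 and Pex5l as points with their standard errors, placed at arbitrary heights. The bulk of the genes lies below 0, with a median of -0.25, Pex5l lies at 0.72, Hcn2 at 0.42 and Hcn3 at -0.08.

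The call for Pex5l was close to the threshold. It was higher in CES under all 24 alternatives, by 0.51 to 1.12, and kept its call in 14 of them. It lost the call without COS replicate 1, 2, 3 or 4 (limma, adjusted p = 0.0649, 0.0659, 0.136 and 0.0608) and without CES replicate 1 or 3 (limma, adjusted p = 0.0861 and 0.0535), and without CES replicate 2 it was 0.93 (limma, adjusted p = 0.00271).

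**Figure D5:**
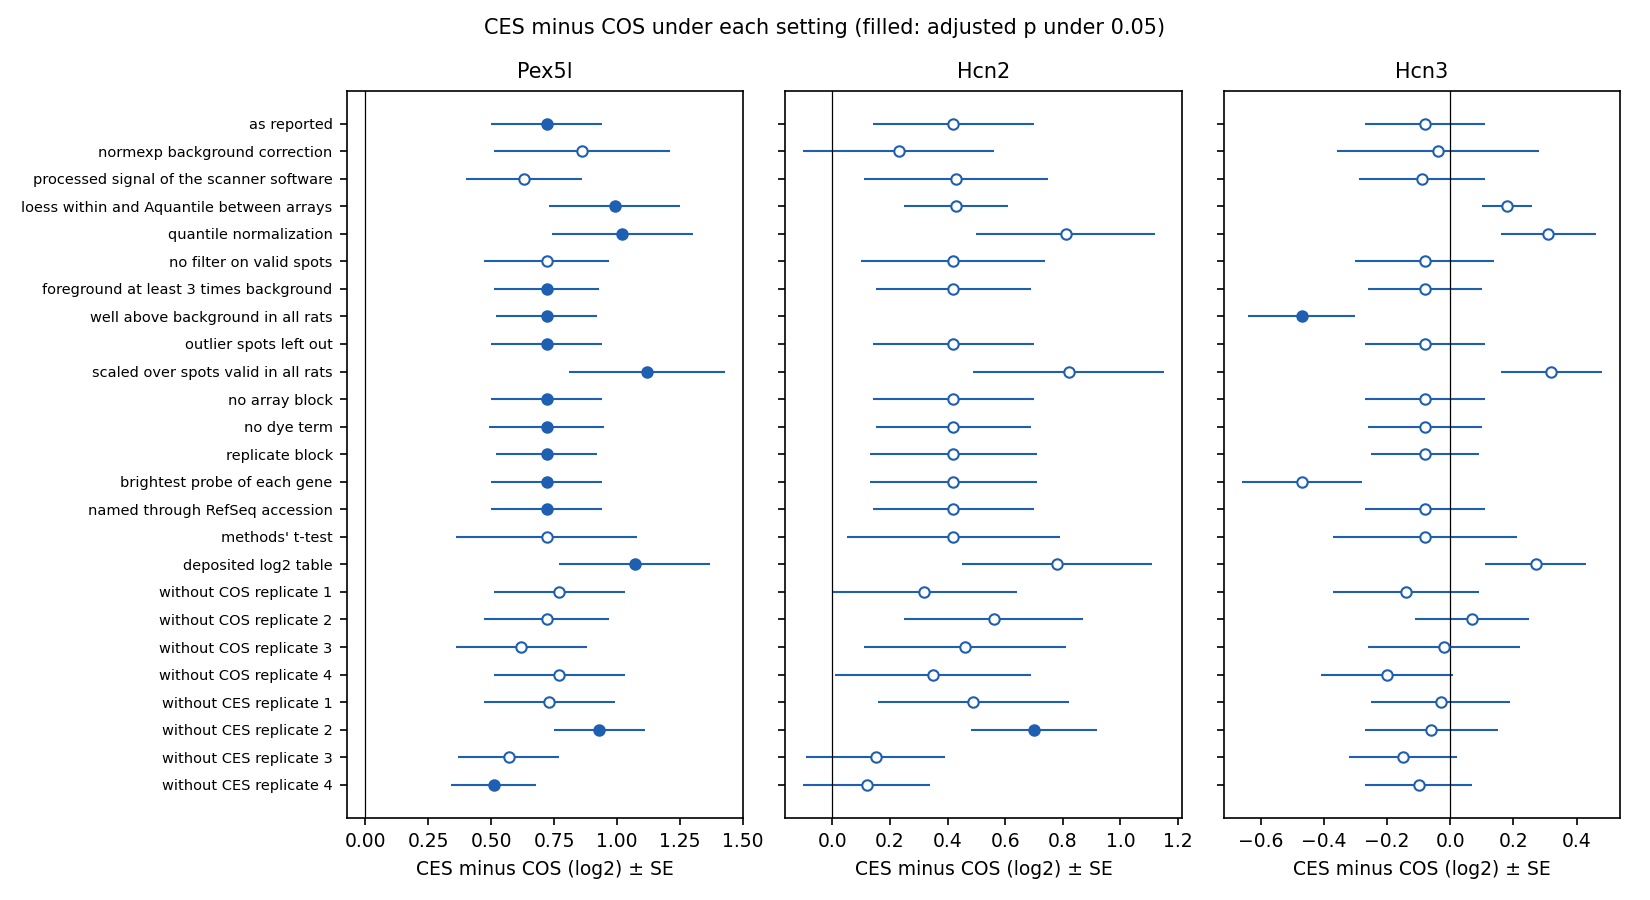
CES minus COS difference (log2) ± SE of Pex5l, Hcn2 and Hcn3 under each setting for whole genes (the separate Hcn3 probes are not plotted), filled where the adjusted p was under 0.05. Pex5l stays to the right of 0 throughout, from 0.51 to 1.12, Hcn2 is filled once, without CES replicate 2, at 0.70, and Hcn3 lies on both sides of 0, from -0.47 to 0.32.

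Markers of CA pyramidal cells were higher in CES. Of the 4 markers, 4 were called higher, beside 5.8% of all genes. Wfs1 rose by 0.98 (limma, adjusted p = 0.00961) and Grik4 by 0.69 (limma, adjusted p = 0.0252). Nov rose by 1.95 (limma, adjusted p = 0.0069), and Fibcd1 was also called higher (limma, adjusted p = 0.0135). All 4 were called higher after loess as well, beside 15.5% of all genes, and without CES replicate 2, beside 8.7%. The log2 of their summed levels was 3.93, 4.05, 4.49 and 3.77 in COS replicates 1 to 4 and 5.68, 4.38, 6.10 and 5.84 in CES replicates 1 to 4. CES replicate 2, which stood apart from its group across all genes, lay within the COS range. Wfs1, Grik4 and Nov were well above background in 8 of 8 rats and Fibcd1 in 2 of 8, so no size is given for it. The part of these cells in the Pex5l difference was not tested. In bulk RNA the number of cells of a type and the RNA per cell cannot be told apart.

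Of the granule cell markers, which define the DG, 5 of 6 were quantified. The fit called 1 of them higher and 3 lower, beside 5.8% and 28.3% of all genes. Neurod1 rose by 1.16 (limma, adjusted p = 0.00516), and Dsp and C1ql2 fell by 1.24 and 1.23 (limma, adjusted p = 0.00701 and 0.0104). Dsp was well above background in 5 of 8 rats. After loess Neurod1 kept its call and Dsp and C1ql2 lost theirs (limma, adjusted p = 0.0648 and 0.0565). Calb1 did not pass. Tdo2 was called lower (limma, adjusted p = 0.0426) and lost its call after loess (limma, adjusted p = 0.44). Tdo2 and Prox1, the latter the defining transcription factor of granule cells, were not well above background in any rat, so no size is given for either. The log2 of the summed granule cell markers overlapped, at 4.02 to 4.88 in COS and 4.23 to 4.65 in CES. Elsewhere the fit called 3 of 7 interneuron, 3 of 6 microglial, 4 of 5 endothelial and 2 of 5 thalamic relay markers lower and 0 of these higher. It called 2 of 6 astrocyte markers higher and 1 lower, and 0 of 6 oligodendrocyte and 0 of 6 choroid plexus markers. The shares of all genes were 5.8% higher and 28.3% lower. After loess the counts lower were 2 interneuron, 2 microglial, 1 endothelial and 1 thalamic relay, beside 10.4% of all genes. Higher after loess were 1 interneuron and 1 astrocyte marker, beside 15.5% of all genes. Without CES replicate 2 the counts lower were 5 interneuron, 4 microglial, 4 endothelial, 4 thalamic relay and 2 astrocyte markers, beside 32.7% of all genes. Higher in that fit were 1 interneuron, 2 astrocyte and 1 oligodendrocyte marker, beside 8.7% of all genes. Summed over the list, in log2, interneuron markers ran from 8.50 to 9.15 in COS and 6.89 to 8.32 in CES and thalamic relay markers from 4.2 to 5.07 and 2.57 to 3.99, with no overlap between the groups. Microglial markers ran from 5.48 to 6 in COS and 4.93 to 5.34 in CES, again without overlap. Of all single genes, 19.8% had CES below COS without overlap. Endothelial (5.37 to 6 and 4.2 to 5.45), astrocyte (7.48 to 7.61 and 7.25 to 7.84), oligodendrocyte (7.80 to 8.66 and 8.23 to 8.86) and choroid plexus markers (0.81 to 4.80 and 1.59 to 3.1) overlapped. Sums over a list add signals of different probes, so the brightest markers weigh most. Among interneuron markers these were Npy and Sst, at 7.58 and 7.51 on average in COS. Both were called lower, as was Vip, while Gad1, Gad2, Slc32a1 and Pvalb did not pass. After loess Pvalb was called higher. The sums are on the scale whose median difference over all genes was -0.25. The part of these lists in the differences of the members was not tested.

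Because Hcn2, Hcn3 and Pex5l were measured in the same channel of each rat, their log2 ratios are free of any constant factor of the channel, though not of corrections that depend on intensity, and only the difference of a ratio between groups is read. After loess the differences between groups were 0.25 for Hcn2 minus Hcn3, -0.55 for Hcn2 minus Pex5l and -0.81 for Hcn3 minus Pex5l. Hcn3 minus Pex5l was -4.10, -3.35, -3.52 and -4.11 in COS and -4.66, -4.03, -4.63 and -4.95 in CES. CES replicates 1, 3 and 4 were below every COS rat, and CES replicate 2 was inside their range. The means were -3.77 ± 0.39 and -4.57 ± 0.39 (SD, n = 4), and the difference of -0.80 did not pass (exact permutation p = 0.0857, 0.214 after adjustment over the 3 pairs). Hcn2 minus Hcn3 was -0.79, -0.57, -0.69 and -0.43 in COS and -0.31, -0.72, 0.05 and 0.49 in CES, a difference of 0.50 (exact permutation p = 0.143, adjusted 0.214), with CES replicate 2 again inside the COS range. Without CES replicate 2, Hcn3 minus Pex5l was -0.98 and Hcn2 minus Hcn3 was 0.70, both with an adjusted exact permutation p of 0.0429. Hcn2 minus Pex5l differed by -0.30, with overlapping groups (exact permutation p = 0.257, adjusted 0.257).

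Among proteins that bind or regulate HCN channels, most did not pass the test. Of 17 genes, 15 were on the array and 14 were quantified, of which 1 was called higher and 3 lower, with a median difference of -0.29, beside 5.8% and 28.3% of all genes and a median of -0.25. Ptpra, a receptor tyrosine phosphatase that acts on HCN2, rose from 3.20 ± 0.28 to 3.74 ± 0.34 (SD, n = 4; difference 0.54, limma, adjusted p = 0.0378). Flna, an actin cross-linker that anchors channels, fell by 2.57, from 2.93 ± 0.25 to 0.37 ± 1.27 (limma, adjusted p = 0.0069). Cav1, the scaffold of caveolae, fell by 0.99 (limma, adjusted p = 0.00475). Alg10, a glucosyltransferase of glycoprotein synthesis, fell by 0.58 (limma, adjusted p = 0.0316) and lost its call after loess. After loess 2 genes of this list were higher and 2 lower, beside 15.5% and 10.4% of all genes. Kcne2, an accessory subunit of HCN and potassium channels, differed by 0.12 (limma, adjusted p = 0.886), and 3 of 8 rats showed it well above background. Rest, the transcriptional repressor of neuronal genes, differed by -0.44 (limma, adjusted p = 0.254), and 2 of 8 rats showed it well above background.

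The cyclic nucleotide-gated channels, the closest relatives of the HCN family, were mostly near background. Of 6 genes, 1 was quantified, Cngb1, which did not pass (limma, adjusted p = 0.745), and 4 were not well above background in any rat.

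The phosphodiesterases break down the cyclic nucleotides that bind HCN channels, and they moved both ways. Of 24 genes, 23 were on the array and 16 were quantified, with 3 higher, 6 lower and a median difference of -0.11, beside the same shares of all genes. The higher ones were Pde1a, activated by calcium and calmodulin (difference 0.65, limma, adjusted p = 0.0183), Pde2a, stimulated by cyclic GMP (0.83, adjusted p = 0.0200), and Pde4a, specific for cyclic AMP (0.68, adjusted p = 0.0158). Among the lower ones, Pde1c, Pde4b, Pde7a and Pde8a fell by 1.19, 0.90, 0.81 and 0.92 and Pde3b by 0.50 (limma, adjusted p from 0.00459 to 0.0389). Pde1c, Pde3b and Pde8a were each well above background in 5 of 8 rats, so their sizes are uncertain. Pde6h, a photoreceptor subunit, was also called lower (limma, adjusted p = 0.0443), but 1 of 8 rats showed it well above background and no size is given. After loess 5 phosphodiesterases were higher and 1 lower, with 15.5% of all genes higher and 10.4% lower. Without CES replicate 2 the counts were 5 and 6, with 8.7% and 32.7% of all genes.

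Trip8b takes its gene name from the peroxisomal import machinery, whose genes were called at about the rate of all genes in the reported fit. Of 16 genes, 15 were quantified, with 0 higher and 5 lower and a median difference of -0.20, beside 5.8% and 28.3% of all genes and a median of -0.25. Pex5, the import receptor to which Trip8b is related, fell by 1.05, from -0.80 ± 0.47 to -1.85 ± 0.37 (SD, n = 4; limma, adjusted p = 0.00549), with no overlap between the groups, as in 19.8% of all genes. Pex5 was well above background in 5 rats and not in the rest, so the size of its fall is uncertain. Pex11a and Pex11g, which act in peroxisome division, fell by 2.15 and 0.72 (limma, adjusted p = 0.00375 and 0.0189). Pex13, of the docking complex, and Pex16, of membrane assembly, fell by 0.77 and 0.89 (limma, adjusted p = 0.0105 and 0.00516). After loess 2 genes of the list were higher and 4 lower, beside 15.5% and 10.4% of all genes. Pex5 was among those lower (limma, adjusted p = 0.0336).

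The genes whose levels followed each member most closely were found from the root mean square difference of log2 levels over the 8 rats, after each gene was centered on its own mean. For Pex5l they were Gabra2, a GABA-A receptor subunit, at 0.121, the transcript ENSRNOT00000005061 at 0.124 and Sspn, a membrane protein of the dystrophin complex, at 0.128, where the median gene was at 0.663. For Hcn2 they were Tlcd1 at 0.115, Thy1, a neuronal surface glycoprotein, at 0.125 and the unnamed transcript AW914998 at 0.13, with a median of 0.596. For Hcn3 they were the unnamed transcripts AW918487 at 0.0483 and FQ227232 at 0.0534 and Sh3d21 at 0.0570, with a median of 0.376.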

How the data were processed

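Total DG RNA of 8 OVX rats after SE (4 COS, 4 CES) was read on 2-color arrays. Per the file headers, Agilent Feature Extraction 10.7.3.1 gave spot and background intensity for each channel, and 100% of the deposited mean signals carry at most 3 significant digits. The authors also deposited log2 values of the background-subtracted signal, scaled to the median, which served as an alternative. Arrays do not give counts, so the number of rats limits the precision.

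As in the study's methods, the mean signal minus the background median of each valid spot (foreground at least 2 times background) was set over the channel's median valid spot. Spots of a gene name that were valid in every rat were averaged, and log2 was taken. The methods' later iterative renormalization was not applied. The group difference was fitted in R 4.3.3 with limma 3.58.1, with dye as a fixed term and array as a random block (statmod 1.5.0). The test was two-sided, p was adjusted by Benjamini-Hochberg over 21332 genes, and the threshold was 0.05. Each array holds 1 group, so array and group cannot be told apart beyond that block. Single values were compared by exact permutation tests over rats. Tested on simulated data for this comparison with 21332 genes, the fit recovered 57% of 100 genes changed by 1 and 90% of 100 changed by 2 on the log2 scale, with 11 false calls among 158. The simulation changed 200 genes with random sign, under normal noise, with no deviating rat and no shift in scale. In the rats 34.1% of genes were called, so these rates need not hold for those calls. Figures were drawn with matplotlib 3.10.9.

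Alternatives were normexp (offset 50), the processed signal, loess with Aquantile, quantile normalization, other filters, scalings and probe rules, naming through RefSeq accessions (17512 of 41012 probes matched), fits without the array block or dye, the replicate number as a block, leaving out each rat, the deposited log2 values and the methods' t-test (unequal variances). The separate Hcn3 probes, their ratio, and the list counts after loess and without CES replicate 2 were added after the data were seen. Genes named are the 4 members, genes of the HCN-regulating, cyclic nucleotide and peroxisomal lists past the threshold, Kcne2, Pex5 and Rest, and the 3 genes most like each member. Cnga1, Cngb1 and the CA pyramidal, granule cell and interneuron markers were named after their values were seen. The members and lists were chosen with earlier results of these data known, and 1 further gene of the lists is not reported here. Same-numbered rats had correlations of 0.21 to 0.34 across genes, but they share the dye, rats of the same dye with other numbers had 0.21 to 0.44, and no source ties a number to a litter or day. The number as a block is therefore an alternative, given in the closing section.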

Additional observations from a re-analysis of the deposited data

How the results depend on the processing

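Pex5l was higher in CES under all 24 alternatives. Its adjusted p missed the threshold with normexp (difference 0.86, limma, adjusted p = 0.220), the processed signal (0.63, 0.0601), no filter (0.72, 0.0974) and the methods' t-test (0.72, 0.268), and leaving out 1 rat gave 0.51 to 0.93. Hcn2 ran from 0.12 to 0.82 over its alternatives (0.23 with normexp, 0.81 after quantile normalization, 0.82 when scaled over spots valid in all rats, 0.78 in the deposited values) and from 0.12 to 0.70 over the leave-outs, with a call only without CES replicate 2, and had no value under the software's mark for every rat. Hcn3 reversed to 0.18 after loess, 0.31 after quantile normalization, 0.32 when scaled over spots valid in all rats, 0.27 in the deposited log2 values and 0.52 on probe A_44_P107352 alone. It passed at -0.47 with spots well above background in all rats, where A_43_P15414 alone remains, and ran from -0.20 to 0.07 over the leave-outs, the last without COS replicate 2. Hcn4 had no value in the reported fit, and none is given under the alternatives, since both groups were below the software's mark. Ratios within a rat ran over the leave-outs from 0.30 to 0.70 for Hcn2 minus Hcn3, from -0.98 to -0.66 for Hcn3 minus Pex5l and from -0.46 to -0.14 for Hcn2 minus Pex5l. Hcn2 minus Hcn3 was 0.25 after loess, 0.27 with normexp and 0.89 with the brightest probe, and Hcn2 minus Pex5l was -0.62 with normexp and -0.55 after loess. The Hcn3 probe ratio ran from 0.81 to 1.28 over the leave-outs. Beyond the constructions named, the cause of these changes was not tested.

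Over all genes 7276 were called, against 586 with normexp, 3113 without a filter and 1171 to 8837 over the leave-outs, the lowest without COS replicate 3 and the highest without CES replicate 2, with 4145 without COS replicate 1 and 2988 without CES replicate 1. The methods' t-test called 0 after adjustment and 6103 at an unadjusted p under 0.05, where limma had 9633. The share of calls that were higher in CES was 17% as reported, 59.8% after loess, 57.9% after quantile normalization, 66.1% when scaled over spots valid in all rats and 63% in the deposited values, with medians of all genes of 0.04, 0.06, 0.15 and 0.12 in place of -0.25. Relative to the median gene Pex5l stayed between 0.78 and 1.20.

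With the replicate number as a block, the difference was 0.72 for Pex5l (limma, adjusted p = 0.0332), 0.42 for Hcn2 (0.295) and -0.08 for Hcn3 (0.748), and 7207 genes were called, so the block changed no call of a member.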
